A study of Mus musculus with 8 samples.

Results

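Accessible chromatin was measured by ATAC-seq in mouse medullary thymic epithelial cells (mTECs), and the regions around 8 transcription factors of neuroendocrine and muscle lineages are described here. These were Neurod1, Insm1, Nkx6-2, Pax6 and Isl1 for the neuroendocrine lineage, and Myog, Myod1 and Myf6 for skeletal muscle. The series comprised 8 samples of wild-type thymus, sorted by the surface protein Tspan8 and by the level of MHC class II into Tspan8pos MHCIIhi, Tspan8pos MHCIIlo, Tspan8neg MHCIIhi and Tspan8neg MHCIIlo cells, each with 2 biological replicates. Per the study's methods the mice were young BL6N6 animals, and mTECs were sorted as CD45-negative, Epcam-positive and CDR1-negative cells. For each factor, every consensus region that overlapped the gene body or the 20 kb on either side was taken. This gave 16 of the 57124 regions of the series. The names of the 8 count columns match no sample label, so read depth and the differences between the 4 groups are not analysed here, and the values below belong to the pooled region set.

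mTECs display proteins of many peripheral tissues to developing T cells, and small subsets of them resemble peripheral cell types, among them neuroendocrine and muscle cells. Neuroendocrine identity is built by homeodomain, paired-box, zinc-finger and basic helix-loop-helix factors that switch on the genes of hormone secretion. Skeletal muscle identity is set by the myogenic basic helix-loop-helix factors, which bind E-box sequences in muscle genes and activate each other. A region in ATAC-seq is a stretch that the transposase could enter in at least part of the sorted cells, and it does not by itself show that the gene was transcribed.

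A transcription start lay inside a region at 4 of the 5 neuroendocrine factors, namely Insm1, Nkx6-2, Pax6 and Isl1, and at 0 of the 3 muscle factors. Among all 21938 protein-coding genes, 56.4% had a start inside a region. By the promoter definition used for the whole set (a region centre at most 1000 bases before or 100 bases after a start) the count was 3 neuroendocrine factors, compared with 48.6% of protein-coding genes. Insm1 missed this limit because the centre of its region was 105 bases downstream of its start. All 8 windows held at least 1 region, compared with 81.5% of protein-coding genes. The 5 and 3 genes are too few for the counts to be set apart from these backgrounds, and no test was made.

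**Figure D1:**
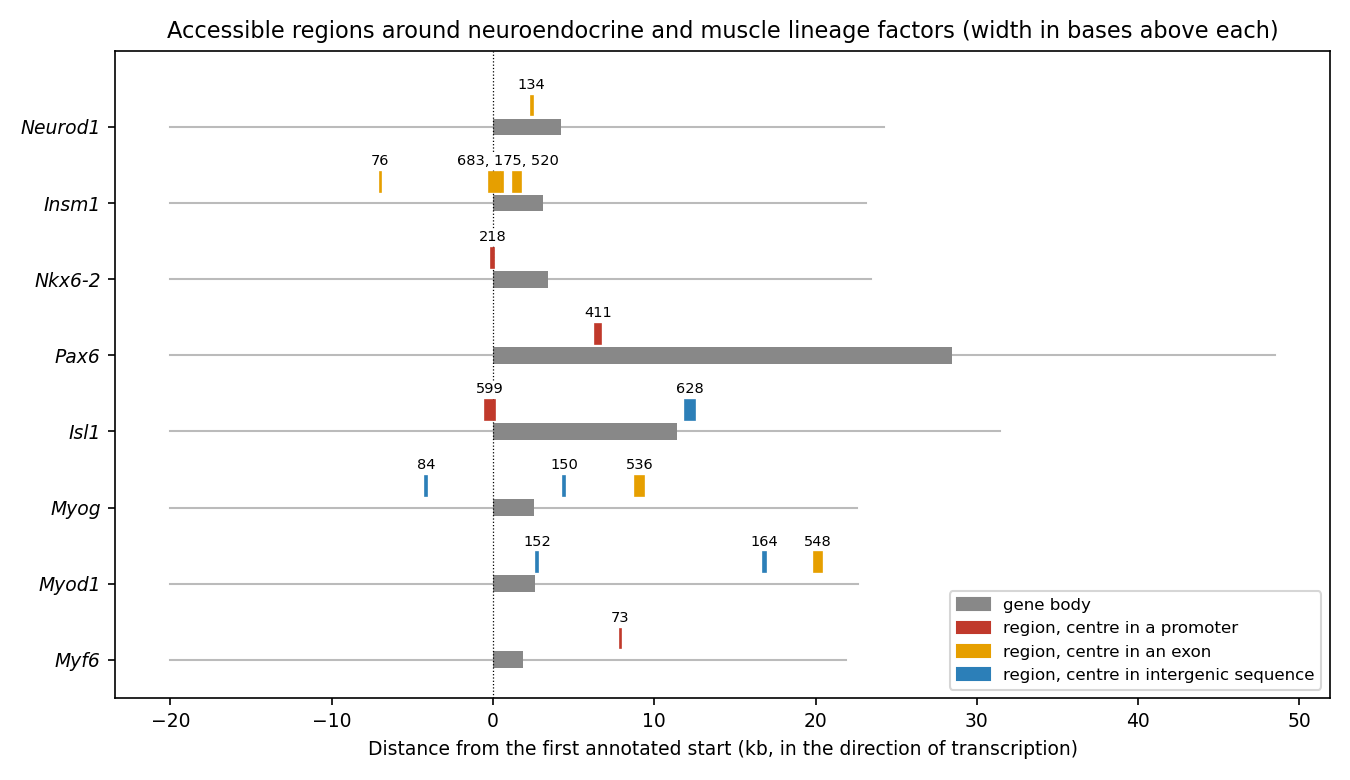
Map of the 16 regions. Each row is 1 gene, the horizontal axis is the distance from its first annotated start in kb in the direction of transcription, the thin line is the window and coloured bars are the regions, drawn to scale with a thin outline. The bars meet the dotted line at Insm1, Nkx6-2 and Isl1, lie inside the gene at Neurod1 and Pax6, and lie outside all 3 muscle genes.

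The sequences at the accessible starts are shown first, because they show what the sequence at a covered start of these factors looks like. All are from the mm10 (GRCm38) reference, 5′ to 3′ on the strand of the gene named, without the untranslated parts. Capitals mark matches to any of 7 short motifs, searched on both strands. The E-box of myogenic factors was searched as CAGCTG, which 20.3% of all regions held. The E-box of neurogenic factors was searched as CAGATG, which 17.6% of all regions held. For homeodomain factors the letters were TAATTA, present in 3.22% of regions. For ETS factors they were CGGAAG, present in 14.3% of regions. For KLF factors they were GGGCGTGG, present in 5.27% of regions. For AP-1 they were TGACTCA, present in 18.0% of regions. The TATA box was searched as TATAAA, present in 6.60% of regions. The stretch upstream of the Insm1 start, that upstream of the Nkx6-2 start and the central part of the sequence upstream of Isl1 follow.
Insm1, chr2:146221685-146221920, 236 bases, plus strand: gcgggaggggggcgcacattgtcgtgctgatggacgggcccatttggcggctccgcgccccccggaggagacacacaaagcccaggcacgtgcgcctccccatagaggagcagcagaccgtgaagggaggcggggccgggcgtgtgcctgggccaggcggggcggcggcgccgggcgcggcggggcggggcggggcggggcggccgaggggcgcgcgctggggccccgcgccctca
Nkx6-2, chr7:139582798-139582939, 142 bases, minus strand: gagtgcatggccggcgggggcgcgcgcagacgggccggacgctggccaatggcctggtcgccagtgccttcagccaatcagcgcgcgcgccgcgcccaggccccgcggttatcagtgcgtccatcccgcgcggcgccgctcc
Isl1, chr13:116309785-116310084, 300 bases, minus strand: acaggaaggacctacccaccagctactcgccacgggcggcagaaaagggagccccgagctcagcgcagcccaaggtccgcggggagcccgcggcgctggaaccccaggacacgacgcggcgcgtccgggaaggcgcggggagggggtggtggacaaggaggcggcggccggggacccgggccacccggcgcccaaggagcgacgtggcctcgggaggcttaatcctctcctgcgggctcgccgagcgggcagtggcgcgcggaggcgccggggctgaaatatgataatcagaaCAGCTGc
All of these are rich in G and C. Within these 3 stretches the only match was the myogenic E-box at Isl1, which 33.3% of regions of similar width (within 20% either way) held. The remainder of the Insm1 region, downstream of its start, held 1 neurogenic E-box and 1 KLF motif, as did 24.3% and 15.4% of regions of similar width. The region at Pax6 lay within annotated untranslated sequence throughout, so its letters are not shown.

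Insm1, a zinc-finger repressor needed for endocrine cell differentiation, had the most regions of the 8 factors. Its window held 4 regions with widths of 76, 683, 175 and 520 bases. The region of 683 bases, chr2:146221685-146222367, reached from 236 bases upstream of the start to 446 bases downstream and overlapped the untranslated and the coding sequence of this gene. It was wider than 90.5% of all regions. The regions of 175 bases (chr2:146222397-146222571) and 520 bases (chr2:146223140-146223659) followed within the coding sequence. Together the 3 covered 36.8% of the gene body, a larger share than in 99.4% of protein-coding genes, for which the median was 0.982%. The Insm1 gene is only 3100 bases long, and genes of similar length were not compared separately. The middle region had a GC content of 84.0%, the highest of the 16, and is shown as an example of accessible coding sequence.
Insm1, chr2:146222397-146222571, 175 bases, plus strand: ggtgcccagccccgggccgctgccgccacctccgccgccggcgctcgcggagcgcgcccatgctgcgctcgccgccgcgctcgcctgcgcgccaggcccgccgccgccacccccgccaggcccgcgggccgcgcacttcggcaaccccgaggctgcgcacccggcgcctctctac
No motif matched in it. The region of 76 bases, chr2:146214884-146214959, was centred 7000 bases upstream, in the untranslated sequence of the neighbouring gene Cfap61.

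Isl1, a LIM-homeodomain factor of motor neurons and pancreatic islets, had 2 regions. The region at the start, chr13:116309581-116310179, was 599 bases wide, extended 490 bases upstream of the first start and overlapped the untranslated sequence. It was wider than 64.3% of all promoter regions. The other, chr13:116297182-116297809, was 628 bases wide and lay 472 bases beyond the end of the gene, in sequence without an annotated gene. It was wider than 96.9% of all intergenic regions, and its central part is shown because it was the widest region outside a gene among the 16.
Isl1, chr13:116297346-116297645, 300 bases, minus strand: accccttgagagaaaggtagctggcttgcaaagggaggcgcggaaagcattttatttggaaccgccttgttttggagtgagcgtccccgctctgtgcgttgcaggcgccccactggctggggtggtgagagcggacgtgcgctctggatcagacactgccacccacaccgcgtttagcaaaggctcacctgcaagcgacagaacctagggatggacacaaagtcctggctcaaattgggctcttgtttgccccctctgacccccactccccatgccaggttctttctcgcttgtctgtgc
The AP-1 motif matched once in this region, outside the stretch shown, and 16.1% of regions of similar width held it. No further region was found from 20 to 50 kb outside Isl1, and 1 from 50 to 100 kb.

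Nkx6-2, a homeodomain factor of the nervous system and the pancreas, had 1 region, chr7:139582722-139582939. It was 218 bases wide, lay from 142 bases upstream to 75 bases downstream of the first start and overlapped the untranslated sequence. Only 18.8% of promoter regions were narrower. Its CpG ratio was 1.06, the number of CpG dinucleotides observed over the number that its C and G content would give.

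Pax6, a paired-box and homeodomain factor of the eye, the brain and the islets, has several alternative starts, 8 in the basic annotation. Its only region, chr2:105675215-105675625, was 411 bases wide and lay inside the gene, 6520 bases downstream of the first start. The centre was 13 bases from an inner start at position 105675433, and the region also covered the starts at 105675513 and 105675527. It lay in untranslated sequence of the gene and was wider than 40.5% of promoter regions. The first start was 6520 bases from the nearest region centre, and a cluster of starts listed only in the comprehensive annotation, from 105682463 to 105682637, was at least 7043 bases from it. Upstream of the first start the nearest region centre was 202988 bases away, farther than for 88.3% of protein-coding genes. A gene with several starts has more places at which a region can be counted, so the count at Pax6 is not like that at genes with 1 start.

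Neurod1, a basic helix-loop-helix factor that drives neuronal and islet differentiation, was the neuroendocrine factor whose start lay outside every region. Its only region, chr2:79454290-79454423, was 134 bases wide and was centred 2395 bases downstream of the start, in the coding exon. The annotated genes Cerkl and Gm26755 also span this position, and no exon of theirs overlaps the region. The nearest region centre upstream was 42763 bases away. The sequence is given because it is the coding sequence of the factor itself and holds a neurogenic E-box read on the opposite strand, a motif found in 12.5% of regions of similar width.
Neurod1, chr2:79454290-79454423, 134 bases, minus strand: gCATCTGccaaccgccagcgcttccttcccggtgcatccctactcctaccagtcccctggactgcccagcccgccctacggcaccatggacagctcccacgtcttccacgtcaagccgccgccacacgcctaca
It had a GC content of 66.4% and no repeat sequence.

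The myogenic factors had no region in any of the 3 gene bodies, which were short, from 1885 to 2626 bases. The share of all protein-coding genes without a region in the body was not computed, so this count has no direct background beside it. Over protein-coding genes of any length the median share of the body inside regions was 0.982%, and genes as short as these were not compared. The windows of the myogenic factors held 7 regions, 5.51 per 100 kb of their summed length. Those of the neuroendocrine factors held 9 regions, 3.59 per 100 kb. The regions per length of window were thus not fewer around the muscle factors. The median width was 152 bases around the muscle factors and 411 bases around the neuroendocrine factors, and the widths overlapped, from 73 to 548 bases and from 76 to 683 bases. Both wide regions around muscle factors lay in other genes. That of 548 bases, chr7:46396356-46396903, covered the start of Kcnc1, a potassium channel gene, 20155 bases downstream of the Myod1 start. That of 536 bases, chr1:134298798-134299333, overlapped coding and untranslated sequence of Ppfia4, 9076 bases downstream of the Myog start.

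Myod1, the factor that can convert other cells to muscle, had its nearest region 36 bases beyond the end of the gene, chr7:46379135-46379286, 152 bases wide. A second intergenic region, chr7:46393238-46393401, was 164 bases wide and lay 14139 bases beyond the end. Each held 1 myogenic E-box (CAGCTG), which 13.8% and 14.9% of regions of similar width held. Upstream of Myod1, where control elements of this gene are known, the nearest region centre was 132146 bases away, farther than for 84.7% of protein-coding genes. The region beside the gene is shown with the E-box in capitals.
Myod1, chr7:46379135-46379286, 152 bases, plus strand: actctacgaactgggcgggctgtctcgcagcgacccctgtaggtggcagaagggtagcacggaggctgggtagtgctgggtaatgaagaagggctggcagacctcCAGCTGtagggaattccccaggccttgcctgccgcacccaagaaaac
A match is given as a description of the sequence and does not show that a factor was bound.

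Myog, which drives the final differentiation of muscle fibres, had a region of 84 bases centred 4165 bases upstream (chr1:134285783-134285866) and a region of 150 bases 1766 bases beyond its end (chr1:134294314-134294463). Both were intergenic and narrower than the median intergenic region of 168 bases. Of the second, 68.0% was repeat sequence, the highest share of the 16, and its CpG ratio was 0. It held the neurogenic E-box, as did 13.3% of regions of similar width.
Myog, chr1:134294314-134294463, 150 bases, plus strand: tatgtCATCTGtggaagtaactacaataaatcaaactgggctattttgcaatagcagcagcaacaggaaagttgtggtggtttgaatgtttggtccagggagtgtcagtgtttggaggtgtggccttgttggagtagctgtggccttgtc
Around Myog, 2 more regions lay from 20 to 50 kb outside the gene and 8 from 50 to 100 kb.

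Myf6, also called MRF4, shares its locus with the related myogenic gene Myf5. Its window held 1 region, chr10:107486820-107486892, centred 7881 bases downstream of the Myf6 start. This region was 73 bases wide, the narrowest of the 16, and only 0.64% of promoter regions were narrower. Its centre was 722 bases upstream of the Myf5 start, so it counted as a promoter region of Myf5, although it did not reach that start. It is shown because it was the only promoter region among Myod1, Myf5, Myog and Myf6.
Myf6 window, chr10:107486820-107486892, 73 bases, minus strand: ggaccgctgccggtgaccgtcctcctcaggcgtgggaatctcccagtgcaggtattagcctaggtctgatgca
Upstream of Myf6 the nearest region centre was 129615 bases away, and there were 0 regions from 20 to 100 kb outside the gene.

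**Figure D2:**
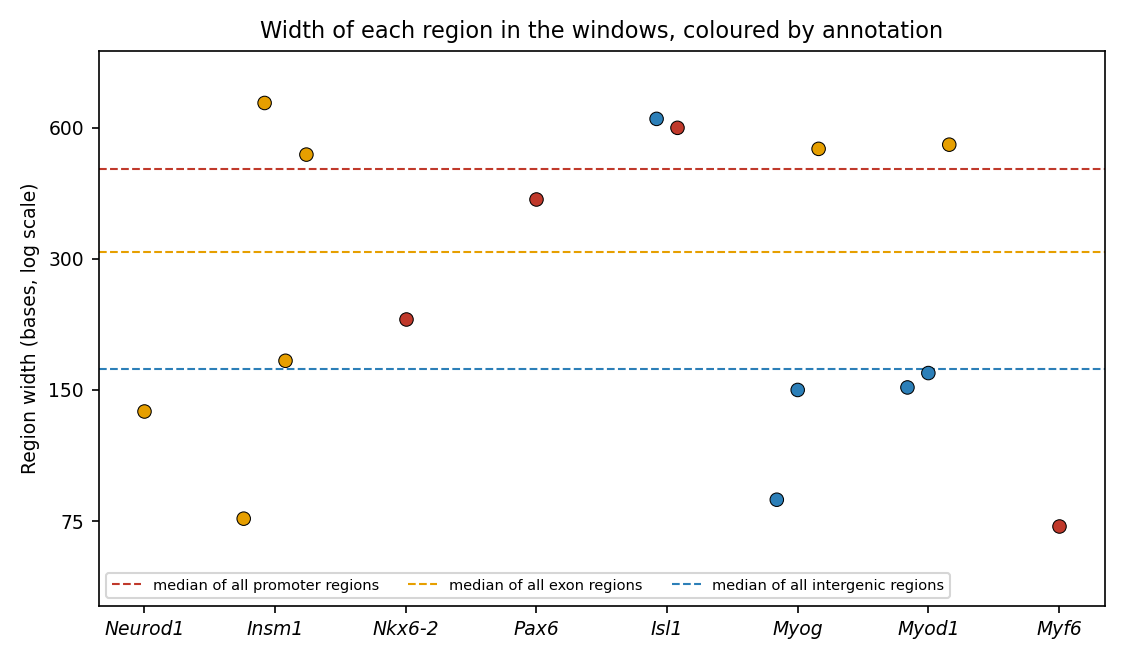
Width of each of the 16 regions in bases on a log axis, by gene, coloured by the annotation of the region centre as in the map. Dashed lines mark the medians of all promoter (482 bases), exon (311) and intergenic (168) regions of the series. The points above the promoter line belong to Insm1, Isl1, Ppfia4 in the Myog window and Kcnc1 in the Myod1 window.

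As a group the 16 regions had a median width of 196.5 bases, compared with 212 bases over all regions, and 8 of them exceeded that median. Their median GC content was 65.3% compared with 53.9%, with 14 of 16 above the median of all regions, and their median CpG ratio was 0.777 compared with 0.317, with 13 of 16 above. By annotation, 4 had their centre in a promoter, 7 in an exon, 5 in intergenic sequence and 0 in an intron. Over the whole set, 21.9%, 8.36%, 29.6% and 40.2% of regions fell into these classes. All promoter, exon and intergenic regions had median GC contents of 64.6%, 62.5% and 51.0%. Their median CpG ratios were 0.768, 0.651 and 0.23. Most of the 16 were promoter or exon regions, and all 4 in the Insm1 window were exon regions. The regions over the starts of Insm1 and Kcnc1 counted as exon, not promoter, regions. The promoter region in the Myf6 window was that of Myf5. Of the 16 regions, 6 held none of the 7 motifs. The share of all regions without any of the 7 was not computed, and a narrow region has less room for a match, so this count has no background beside it. The homeodomain and TATA motifs were found in none of the 16, compared with 3.22% and 6.60% of all regions. The number of regions per 100 kb of window ranged from 1.46 at Pax6 to 9.28 at Insm1. The median per gene was 3.14 over the 8 factors, compared with 3.86 over all protein-coding genes. Over the summed window length of the 8 factors, the measure used for the 2 lineages above, it was 4.24. Measured from any start, the nearest region centre was closer than at the factor in 6.31% of protein-coding genes for Pax6, 17.4% for Nkx6-2, 36.3% for Insm1 and 49.8% for Isl1. The shares were 65.2% for Neurod1, 65.8% for Myod1, 67.7% for Myog and 71.5% for Myf6, so Neurod1 stood beside the muscle factors. The counts of 1 to 4 regions per window lay within the quartiles of 0 and 4 over the 13957 protein-coding genes whose windows were no longer than the longest of the 8.

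The sequence around the starts differed between the factors in CpG content. It was computed from 250 bases upstream to 49 bases downstream of the first start. The CpG ratio was 1.06 at Isl1, 0.972 at Nkx6-2, 0.919 at Insm1, 0.775 at Neurod1 and 0.698 at Pax6. It was lower at the muscle factors, 0.427 at Myod1, 0.422 at Myf6 and 0.340 at Myog. The lineages did not overlap in this ratio, but their genes are too few for a comparison of lineages. At the inner Pax6 start that lay inside a region the ratio was 1.03.

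Over all protein-coding genes the share with a start inside a region was larger at higher CpG ratios. It was 12.0% below 0.2, 29.6% from 0.2 to 0.4, 61.7% from 0.4 to 0.6, 84.4% from 0.6 to 0.8, 92.6% from 0.8 to 1 and 93.7% at 1 or above. Isl1 fell into the highest class and Insm1 and Nkx6-2 into the next, and all had a start inside a region. Neurod1 and Pax6 fell into the class of 84.4%. Neurod1 had no start inside a region, and at Pax6 only inner starts were covered. Myod1 and Myf6 fell into the class of 61.7%, and Myog into that of 29.6%. The part of CpG content in the difference between the lineages was not tested.

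**Figure D3:**
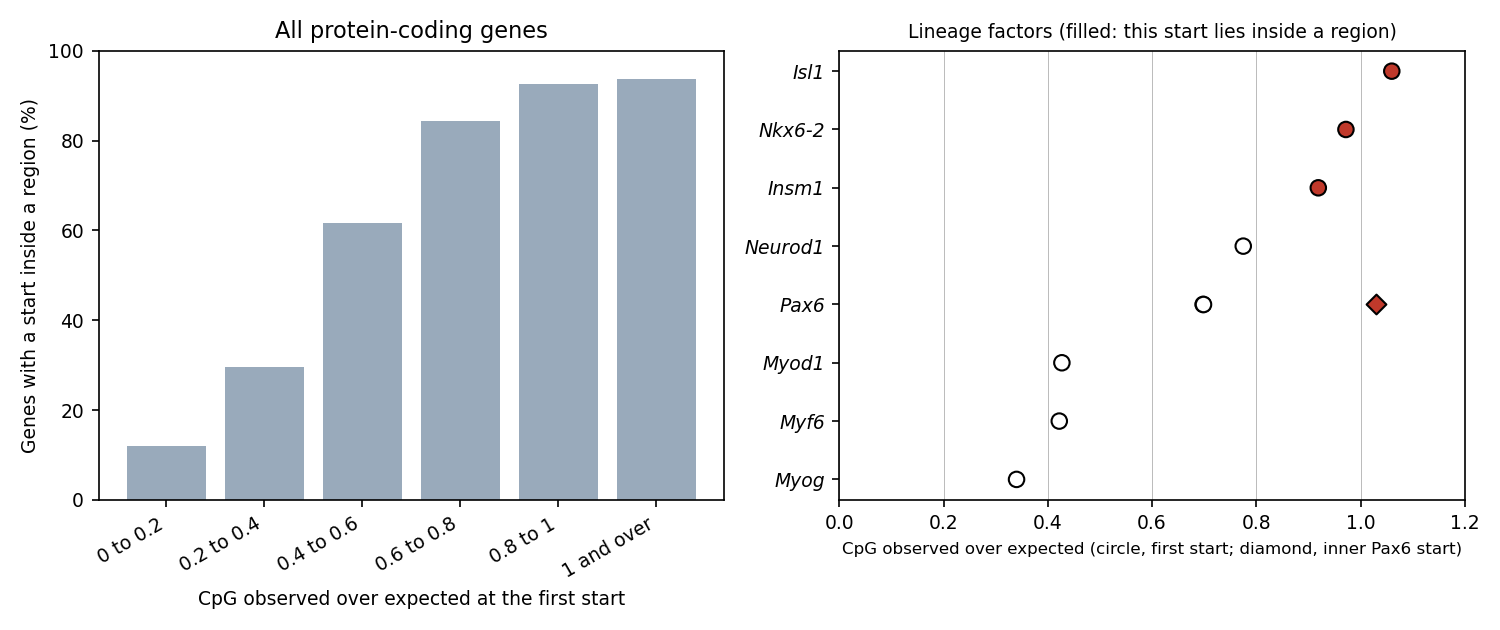
Left, percentage of all protein-coding genes with a start inside a region, by class of CpG observed over expected at the first start, from 12.0% in the lowest class to 93.7% in the highest. Right, the same ratio at the 8 factors (circles, first start; diamond, inner Pax6 start; filled where that start lies inside a region), with the 3 muscle factors between 0.340 and 0.427 and Neurod1 open at 0.775.

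Further genes of both lineages were taken from lists. Among 23 other neuroendocrine transcription factors, 11 had a start inside a region, again beside 56.4% of protein-coding genes. The widest promoter regions were at Foxa2 (801 bases), a forkhead factor of endoderm, and Mafa (678 bases), a regulator of the insulin gene. Neurog3, which starts the endocrine programme, and Pdx1, the pancreatic homeodomain factor, had none, with the nearest region centre 17705 and 22771 bases from a start. Of the relatives of the 5 factors, Isl2 and Neurod4 had a start inside a region. The promoter region at Isl2 was also that of Gm17226. Nkx6-1 had a promoter region of 225 bases that did not reach a start, and for Pax4 and Neurod2 the nearest centres were 11392 and 13090 bases away.

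Among 26 genes of hormone storage and secretion, 12 had a start inside a region, beside 56.4% of protein-coding genes. Among those with a promoter region, the widest were at Syt7 (898 bases), a calcium sensor of vesicle release, and Pcsk2 (877), a protease that matures prohormones. Chga, which encodes the granule protein chromogranin A, had none, and the nearest region centre was 4205 bases from its start. Tph1, the enzyme of serotonin synthesis in enterochromaffin cells, had a region of 246 bases.

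Among 19 other genes listed as transcription factors of muscle, 14 had a start inside a region, beside 56.4% of protein-coding genes. The list also held Id1, Id2, Id3 and Msc, which oppose the myogenic factors, and Id1 and Id2 were among the 14. Most of the 19 genes had a start CpG ratio above 0.6. In those classes 84.4% to 93.7% of protein-coding genes had a start inside a region. The part of CpG content in the count of 14 was not tested. The promoter regions were widest at Tcf12 (1242 bases), Mef2a (1194) and Mef2d (958). The promoter region at Mef2b was also that of Borcs8 and Rfxank. Tcf12 encodes a partner of the myogenic factors that many tissues express, as is the case for Mef2a and Mef2d. Pax7, the factor of muscle stem cells, had its nearest region centre 25311 bases away. Among 27 structural and synaptic genes of muscle, 4 had a start inside a region, beside 56.4% of protein-coding genes and the lowest share of the 4 lists. These were Mylpf (1113 bases), Myl4 (691), Des (444) and Dok7 (335). The regions at Mylpf and Myl4 were also promoter regions of Tbc1d10b and Cdc27, which are not muscle genes. The acetylcholine receptor subunit genes Chrna1, Chrnd and Chrng, which encode the target of antibodies in myasthenia gravis, had none, with the nearest centres 4428, 3420 and 5816 bases from a start. Their start CpG ratios were 0.312, 0.234 and 0.176, and most of the 27 genes had a ratio below 0.4. In those classes 12.0% (below 0.2) and 29.6% (from 0.2 to 0.4) of protein-coding genes had a start inside a region. The part of CpG content in the count of 4 was not tested.

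**Figure D4:**
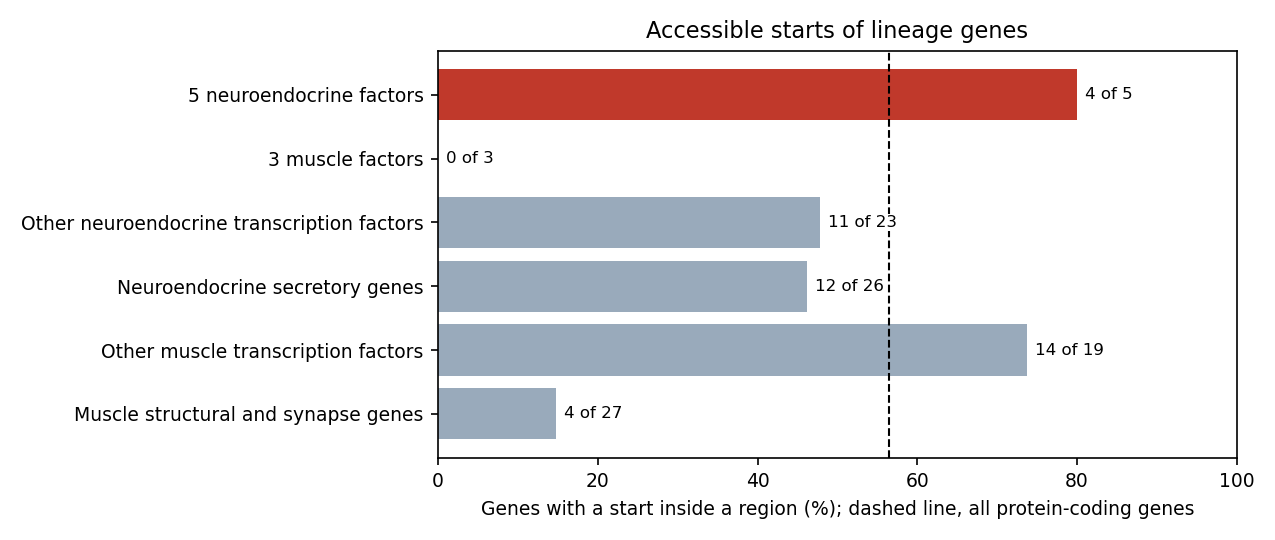
Percentage of genes with a start inside a region for the 5 neuroendocrine and 3 muscle factors (red) and for the 4 lists (grey), with the counts beside the bars and the 56.4% of all protein-coding genes as the dashed line. The 5 neuroendocrine factors (4 of 5) and the muscle transcription factors (14 of 19) lie above the line, and the muscle factors (0 of 3) and the other 3 lists lie below it. Of the lists, the share is lowest for the muscle structural and synapse genes (4 of 27). The line takes no account of CpG content.

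The labelled cell type was checked by promoter regions of marker genes, beside the 48.6% of protein-coding genes that had one. They were found at 7 of 7 mTEC markers (Epcam, Foxn1, Krt5, Krt14, Cldn4, Aire and Cd80), and at 0 of 4 haematopoietic, 0 of 2 endothelial and 0 of 2 fibroblast markers. The start CpG ratios of these 8 markers of other cells lay between 0.189 and 0.361. In those classes 12.5% (below 0.2) and 28.1% (from 0.2 to 0.4) of protein-coding genes had a promoter region. The mTEC markers Foxn1, Krt5, Krt14, Cldn4 and Cd80 also had ratios from 0.2 to 0.4, and Epcam (0.454) and Aire (0.697) had higher ones. The part of CpG content in these counts was not tested. The markers are few, and their counts do not measure the share of other cell types. A start of Pdgfra, a fibroblast marker, lay inside a region whose centre was 277 bases from it, outside the promoter window.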

How the data were processed

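ATAC-seq reads of 8 samples were aligned by the authors to mm10 with Bowtie2, filtered with SAMtools for unique alignments and freed of duplicates with Picard, and broad peaks from MACS2 were merged with bedtools into consensus regions. Per the file headers, featureCounts 2.0.3 made the counts. The sources used here do not say if peaks were called in each sample or on pooled reads. The deposited values used were the start, end and width of each region in bases. The 8 count columns, whose names match no label, were not used, so the count comparisons planned were not run and depth is not analysed here. Region widths depend on the peak caller and on merging, and reads that align to several places were discarded, so repeats are under-represented.

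Gene bodies came from the comprehensive set and starts from the basic set of GENCODE M21. A window was the gene body plus 20 kb on either side, and a region counted with an overlap of 1 base. A promoter region had its centre at most 1000 bases before or 100 bases after a start. Sequence was read from GRCm38.p6 (0 chromosomes had a region past its end). Shares over all protein-coding genes used the same rules. Genes and lists were chosen with earlier results of these data known. The genes named were the 8 factors, genes with a region in their windows, and list members chosen for the widest promoter regions or, after values were seen, as known markers of their lineage. Python 3.11.15, numpy 2.4.6, pandas 2.3.3, pysam 0.24.0 and matplotlib 3.10.9 were used.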

Additional observations from a re-analysis of the deposited data

How the results depend on the processing

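Of 14 alternatives, 11 left the counts within 1.5 times or the median width as it was. The 16 regions became 29 with 50 kb on either side of the gene bodies and 8 with regions of at least 200 bases. The median width of 196.5 bases became 198 with 50 kb on either side. The number of factors with a promoter region was 3 or 4 under all 5 of its alternatives. It was 4, with Insm1 added, when a region had to cover a start or to overlap the 1000 bases on either side of it, and no muscle factor was added under either. No paired analysis was possible because no count column could be tied to a sample or replicate. For that reason the other settings meant for the counts, namely another test, filters, the replicate block and leave-one-out fits, have no values. The regions belong to all samples together, so a region may come from a minority of the cells or from 1 sample, and a missing region says only that no peak was called at the depth of these libraries.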
